A study of Mus musculus with 24 samples.

Results

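The genes examined here were 6 genes of the endothelin pathway, each named through a RefSeq transcript: the ligand genes Edn1 and Edn3, the converting enzyme genes Ece1 and Ece2, and the receptor genes Ednra and Ednrb. They were chosen by name, with earlier results of the same arrays in view, and were 6 of 45547 gene names, read by 9 of 56488 probes. Ece1 had 2 probes, Ednrb had 3, and the other genes had 1 each. Total RNA of 7 mouse cell lines was hybridised to 24 single-colour Agilent arrays, 1 sample per array. The melanoma lines B16F1-GFP-M (called M, the parental line, 3 arrays), B16F1-GFP-D (D, dormant cells recovered from mice after long dormancy, 4 arrays), and the lines DB#1 (4 arrays), DB#2 (3) and DB#3 (3), which carry the same prefix and are a later generation of dormant cells from a brain site, all descend from the mouse melanoma line B16-F1 and carry green fluorescent protein. They were grown as cultures in DMEM with serum, without added drug, and the dormant lines had been amplified in vitro before RNA was taken, so the arrays describe expanded cultures and not cells in the animal. Of the myeloid lines, M0 was read on 4 arrays and J365 on 3. The non-melanoma cells of the study were mouse leukemic myeloid cells, but the labels do not tie M0 and J365 to the names its methods use, and they add p20 to both without saying what it means. The labels do not say that arrays of a line came from separate cultures, so every p-value below measures only the spread between these samples. The age and strain of the host mice were not given in the sources used here.

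Endothelins are small peptide hormones, first known as constrictors of blood vessels. The ligand precursor is cut by furin-type convertases, and the resulting inactive big endothelin is cut again by the membrane metalloproteases endothelin-converting enzyme 1 and 2 to the active peptide. The peptide acts on 2 receptors coupled to G proteins: the type A receptor, encoded by Ednra and best known in smooth muscle, and the type B receptor, encoded by Ednrb. In the skin lineage, endothelin 3 and the type B receptor are required for the expansion and migration of melanocyte precursors, and endothelin 1 from keratinocytes stimulates mature melanocytes.

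All levels below are normalized log2 signals, that is the log2 of the background-corrected intensity of a probe minus the log2 of the 75th percentile of its array. A level of 0 therefore lies at that percentile, and levels are compared between lines for 1 probe, never between genes. A reading is called well above background where the scanner software flagged it so. A fold against a line in which no array was well above background is given as a limit, printed as at least that fold. It is set against the dimmest signals that still passed on those arrays, under the main background correction. The limit is not strict, since some brighter readings failed the flag. On DB#2 replicate 1, for example, the dimmest passing signal was -4.47, while Ednrb at -4.24 did not pass. Between 43.6% and 53.8% of probes were well above background on 23 arrays, but 89.9% were on D replicate 3. D replicate 1 had the lowest share. Differences between lines that use D replicate 3 are also given without it below, for the members tested and the genes that passed. Other differences that use it, such as that of Kit in D against M, are given only with it. The melanocytic markers (Tyr, Dct, Pmel and 5 others) were above background, 8 of 8, on all 17 melanoma arrays. Their mean level per array was 6.31 to 7.37 there and -5.70 to -5.38 on the 7 myeloid arrays. The blood cell markers (Ptprc, Spi1 and 6 others) had a mean level per array of 2.12 to 3.03 on the myeloid arrays, with 8 of 8 above background. On the melanoma arrays it was -3.85 to -1.94, with 2 to 7 above. Single genes departed from these means. Spi1 averaged -1.40 in M0 and -0.88 in J365, Fcer1g averaged -1.05 in M0 and -1.13 in M, and Itgam averaged 4.33 in M0 and 2.91 in M. No pair of arrays held identical values.

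Ece1 was the member whose level varied most clearly between the lines, and the sequences at its start sites are shown for orientation, although which of them the probes read was not determined, since the probe sequences were not used here. RefSeq lists 4 promoter windows for mouse Ece1 on assembly GRCm38.p6, all on the plus strand of chromosome 4, which fall at 3 separate starts. The array design used an older assembly, and the windows were matched by gene symbol. The 120 bases before each separate start are given 5′ to 3′, and capitals mark CACGTG, the E-box read by factors such as MITF and MYC.
Ece1 start 1 (chr4:137862117-137862236): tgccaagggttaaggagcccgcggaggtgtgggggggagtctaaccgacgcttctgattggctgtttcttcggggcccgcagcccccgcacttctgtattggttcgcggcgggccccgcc
Ece1 start 2 (chr4:137913438-137913557): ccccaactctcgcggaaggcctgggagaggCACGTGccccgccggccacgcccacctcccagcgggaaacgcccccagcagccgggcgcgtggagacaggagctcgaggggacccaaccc
Ece1 start 3 (chr4:137920673-137920792): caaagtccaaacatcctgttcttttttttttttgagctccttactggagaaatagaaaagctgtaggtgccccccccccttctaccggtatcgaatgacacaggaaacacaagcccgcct
Over the 250 bases before each start, on both strands, CACGTG (which reads the same on each strand) occurred 1 time, 90 bases before start 2, and in no other Ece1 window. It was held by 6.02% of all 32851 promoter windows of that length. The related E-box CATGTG occurred in none of the Ece1 windows and in 12.3% of all windows. GGGCGG, the core of the GC box, was found 138 bases before start 3 and, 48 and 14 bases upstream, before the RefSeq start that adjoins start 1, and was held by 32.7% of all windows. These matches are descriptions of sequence only.

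The ligand genes were not read in these cultures. Edn1, the endothelin made by endothelial cells and keratinocytes, was well above background on 1 of 24 arrays, Edn3, the ligand of melanocyte precursors, on 1 of 24, and Edn2, the remaining ligand and not a member, on 1 of 24. In all cases that array was D replicate 3, where the levels were -3.42 for Edn1, -3.03 for Edn3 and -1.90 for Edn2. Leaving that array out, Edn1 lay between -6.72 and -5.16, Edn3 between -6.80 and -5.75, and all these readings were below background, so no order between lines is read from them. On D replicate 3 the endothelial markers reached 5 of 8 above background against at most 2 on every other melanoma array, the fibroblast markers 7 of 8 against at most 5 and the blood markers 7 of 8 against at most 5, and their part in its ligand readings was not tested. None of the ligand genes passed the filter for testing in any comparison, so the data bound their signal but give no comparison between dormant and parental cells.

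Ece1 encodes the main membrane enzyme that converts big endothelin, and its level was highest in the parental line. The signal of Ece1 in M was -0.06, -0.59 and -0.35. In D it was -3.10, -1.89, -2.45 and -2.09, and in DB#1 it was -2.26, -2.46, -2.63 and -2.39. All 8 of these dormant arrays lay below all 3 M arrays, and D and DB#1 overlapped each other. DB#3 (replicates 3, 4 and 5) read -1.65, -1.41 and -1.47, between M and D and apart from both. DB#2 read -5.53, -6.66 and -6.00, none of them well above background, so its Ece1 level is known only as an upper limit. On the linear scale before scaling, the DB#2 intensities were 9.29, 3.96 and 7.17, against 400, 230 and 262 in M. In the myeloid lines Ece1 was above background on 7 of 7 arrays, at -3.61, -3.20, -3.93 and -2.96 in M0 (replicates 1 to 4) and at -3.54, -3.78 and -3.55 in J365 (replicates 1, 3 and 4). The order of the means was M (-0.33), DB#3 (-1.51), D (-2.38), DB#1 (-2.44), M0 (-3.43), J365 (-3.62) and DB#2 (-6.06), and the neighbours D with DB#1 and M0 with J365 overlapped while the other neighbours did not. In bulk RNA, fewer cells that express a gene and less of its RNA per cell cannot be told apart.

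**Figure D1:**
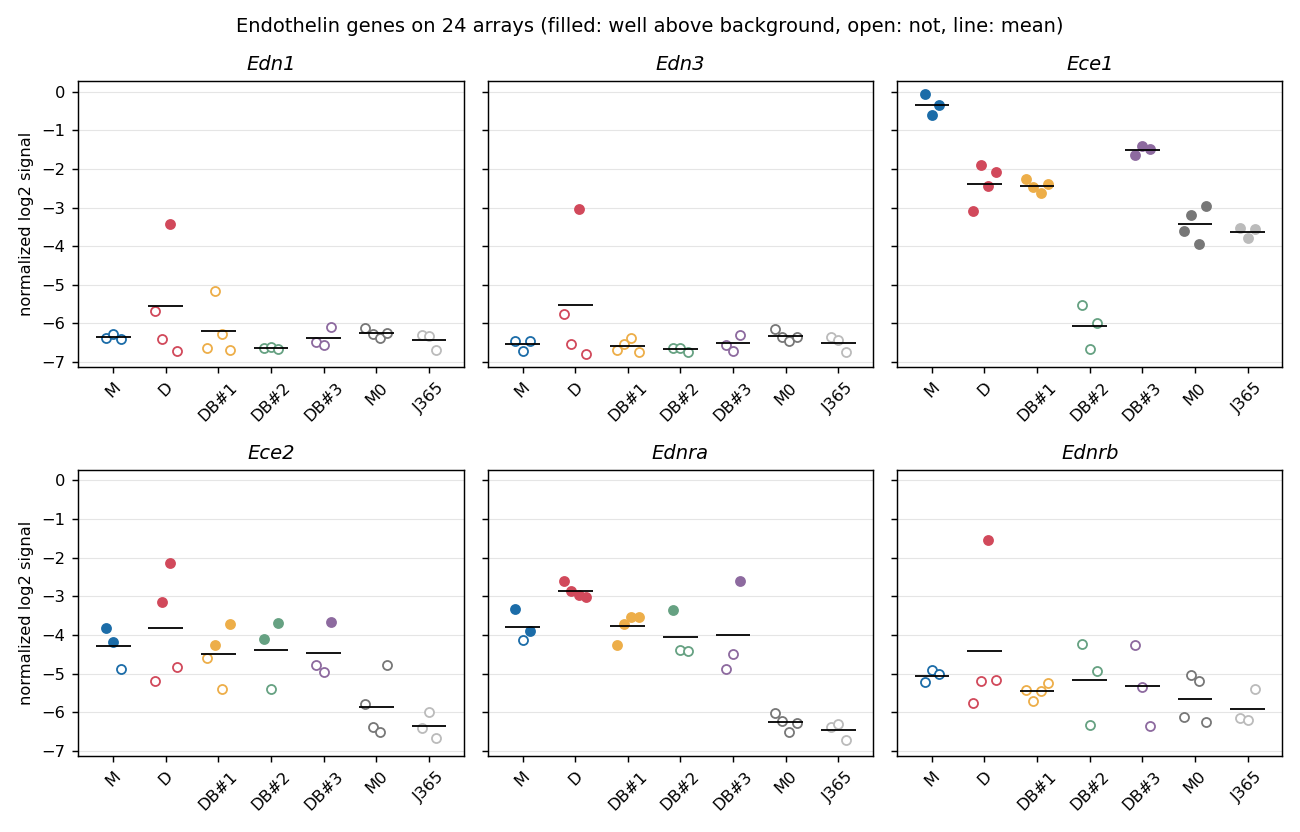
Normalized log2 signal (y axis) of the 6 endothelin genes on each of 24 arrays, by line (x axis); each point is 1 array, filled where well above background and open where not, and the black line is the mean of the line. Ece1 runs from -0.33 in M to -6.06 in DB#2, Ednra is read in the melanoma lines and not in M0 or J365, and Edn1, Edn3 and the brightest Ednrb probe are filled only on D replicate 3.

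The size of the Ece1 difference from the parental line was 2.05 ± 0.27 log2 units lower in D (SE from the limma fit over all 24 arrays, 4.14-fold, n = 4 against 3) and 2.10 ± 0.27 lower in DB#1 (4.29-fold). It was 5.73 ± 0.29 lower in DB#2, which as a limit is at least 17.5-fold, and 1.18 ± 0.29 lower in DB#3 (2.26-fold). Ece1 was thus lower than in M in every one of the 4 dormant lines. With another background correction, normexp with an offset of 50, which raises low signals, the Ece1 differences shrank to -1.37, -1.39, -2.52 and -0.82, so the limit for DB#2 holds for the main correction only. These values are a description and carry no test, since the gene was picked with this pattern known. Among members that could be tested, 1 of 2 passed an adjusted p of 0.05 in D against M, where 2.96% of all 20145 genes did; 1 of 2 passed in DB#1 against M (3.69% of all genes), 1 of 1 in DB#2 against M (3.44%) and 1 of 1 in DB#3 against M (2.76%). In each case the member was Ece1, and nothing is read from these counts. The 4 comparisons share the 3 M arrays and are not independent of each other.

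Within each of the 3 slides, each of which held every line, the Ece1 difference from M was -2.15 to -1.86 in D, -2.37 to -1.66 in DB#1, -6.31 to -4.94 in DB#2 and -1.59 to -0.82 in DB#3. Without D replicate 3 the D difference was -2.03, without D replicate 1 it was -1.81, and without both it was -1.66. The DB#3 difference of Ece1 was near the threshold. It no longer passed without M replicate 1 (-1.04), M replicate 3 (-1.18), DB#3 replicate 3 (-1.11), DB#3 replicate 4 (-1.23) or DB#3 replicate 5 (-1.20). The other Ece1 probe, to the same transcript, was above background on 1 of 24 arrays, so the description rests on 1 probe, and averaging the 2 probes gave -0.68 for D against M, which did not pass.

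Among the dormant lines, Ece1 differed mainly in DB#2. Relative to D it was 3.68 ± 0.27 lower there, at least 4.22-fold, and the limit was at least 4.06-fold against DB#1 and at least 7.72-fold against DB#3. With normexp the difference from D shrank to -1.15, so these limits too hold for the main correction only. Without D replicate 3 the difference from D was -3.70. DB#1 and D differed in Ece1 by -0.05 ± 0.25 (-0.08 without D replicate 3), and DB#3 lay 0.87 ± 0.27 above D (0.85 without it). Of the members tested, 1 of 2 passed in DB#2 against D (6.34% of all genes), 0 of 2 in DB#1 against D (0.475%) and 0 of 2 in DB#3 against D (0.369%). At an unadjusted p of 0.05 the last 2 counts were 1 and 2. These 3 comparisons share the D arrays.

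Between the myeloid lines Ece1 differed by -0.20 ± 0.28 (J365 minus M0), and 0 of 1 tested members passed (1.47% of all genes; 0 at an unadjusted p of 0.05). Set against the myeloid line M0, the melanoma line M had 3.09 ± 0.28 more Ece1 on the log2 scale (8.53-fold; 1.68 with normexp), and 1 of 1 tested members passed, in a comparison where 58.5% of all genes did. Even so, M0 and J365 read more Ece1 than the melanoma line DB#2, by at least 2.05-fold and 1.78-fold, limits that hold for the main correction only. The converting enzyme gene was therefore read in 6 of 7 lines, in both cell types.

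Ece2 encodes the related converting enzyme of neuroendocrine cells, which works at acid pH. It was near the detection limit and above background on 9 of 24 arrays, all of them melanoma arrays. The Ece2 level in M was -3.81, -4.19 and -4.87, the last below background, and D ran from -5.20 to -2.13, with the highest value on D replicate 3. DB#1 ran from -5.39 to -3.73, DB#2 from -5.40 to -3.68 and DB#3 from -4.97 to -3.66. All neighbouring lines overlapped, and no line had all its arrays above background, so Ece2 was not tested. All 7 myeloid readings were below background, from -6.68 to -4.79.

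Of the receptors, Ednra was the one read. Ednra was above background on 12 of 24 arrays, all in melanoma lines, and on 4 of 4 arrays in D and 4 of 4 in DB#1. Its level in D was -2.61, -2.86, -2.97 and -3.02, against -3.33, -4.13 and -3.90 in M, the middle one below background, and against -4.26, -3.73, -3.53 and -3.54 in DB#1. The 4 D arrays lay above all arrays of both these lines. DB#2 read -3.36, -4.40 and -4.42, with only the first above background, and DB#3 read -4.88, -4.50 and -2.61, with only the last above background. DB#3 therefore spanned the range of the other melanoma lines. M0 ran from -6.51 to -6.02 and J365 from -6.73 to -6.30, all below background and below every melanoma array.

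The Ednra difference between D and M was 0.93 ± 0.38 and did not pass, and it was 0.96 without D replicate 3. DB#1 and M differed by 0.02 ± 0.38. Relative to D, Ednra was 0.90 ± 0.35 lower in DB#1, 1.20 ± 0.38 lower in DB#2 and 1.13 ± 0.38 lower in DB#3, and none of these passed. Without D replicate 3 they were -0.94, -1.23 and -1.17. The Ednra difference between DB#2 and D did pass without DB#2 replicate 1 (-1.55), DB#3 replicate 3 (-1.20) or DB#3 replicate 5 (-1.20). That between DB#3 and D passed without DB#3 replicate 5 (-1.83). In these comparisons, and in D against M, Ednra could be tested only through D, its highest line, so nothing is read from these calls. As limits, which are not strict, D held at least 2.34-fold more Ednra than M0 and at least 2.58-fold more than J365. For DB#1 they were at least 1.25-fold and 1.38-fold.

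Ednrb, the receptor of the melanocyte lineage, was read on D arrays only, and on few of them. Its brightest probe was above background on 1 of 24 arrays, at -1.55 on D replicate 3, where the other D arrays read -5.77, -5.19 and -5.17. In M it read -5.23, -4.92 and -5.01, in DB#1 it ran from -5.70 to -5.24, in DB#2 from -6.34 to -4.24 and in DB#3 from -6.36 to -4.26. Of the other probes, to 2 further transcripts, 1 was above background on 2 arrays, at -3.86 on D replicate 2 and -2.29 on D replicate 3, and the other on none. Ednrb was not tested in any comparison.

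The genes that surround the receptors were described from 4 lists of 76 measured genes: convertases and related peptidases (13 genes), receptor signalling (32), melanocyte lineage (11) and endothelin-responsive genes (20). In D against M, 54 of the 76 could be tested and 4 passed, 3 higher and 1 lower, with a median difference of 0.02 against -0.01 over all genes tested. In DB#1 against M it was 6 of 56, all higher (median 0.04 against 0.04), in DB#2 against M 3 of 57, all higher (median -0.02 against 0.02), and in DB#3 against M 4 of 56, all higher (median 0.10 against 0.03). The shares called were 7.41%, 10.7%, 5.26% and 7.14%, beside 2.96%, 3.69%, 3.44% and 2.76% of all genes, and nothing particular to the lists is read from them. No gene of the peptidase list passed in these comparisons (0 of 6 tested in each by limma, with 1, 0, 1 and 1 at an unadjusted p of 0.05), although furin, the convertase that starts ligand processing, was above background on all 24 arrays. Closest to passing was Pcsk4 in D, 0.88 ± 0.24 higher than in M without overlap (limma adjusted p = 0.0501).

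Rgs16, which encodes a GTPase activator that shortens signalling by receptor-coupled G proteins, rose in 3 of 4 dormant lines. The signal of Rgs16 was -1.54, -1.20 and -1.04 in M, and 1.40, 1.11, 0.70 and 1.02 in D. DB#1 read 2.13, 1.10, 1.10 and 1.10, and DB#3 read 1.61, 1.22 and 1.42. None of these arrays overlapped with M. The difference from M was 2.32 ± 0.33 in D (limma adjusted p = 0.000138), 2.62 ± 0.33 in DB#1 (adjusted p = 1.75e-05) and 2.68 ± 0.35 in DB#3 (adjusted p = 3.88e-05). DB#2, at -0.74, -0.33 and -0.44, lay 0.75 ± 0.35 above M, which did not pass (adjusted p = 0.392), and 1.57 ± 0.33 below D, which did (adjusted p = 0.00434). Without D replicate 3 these were 2.44 for D against M and -1.69 for DB#2 against D. The Rgs16 calls were kept in all 34 alternatives tried. The gene was read by 1 probe and was below background in both myeloid lines.

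**Figure D2:**
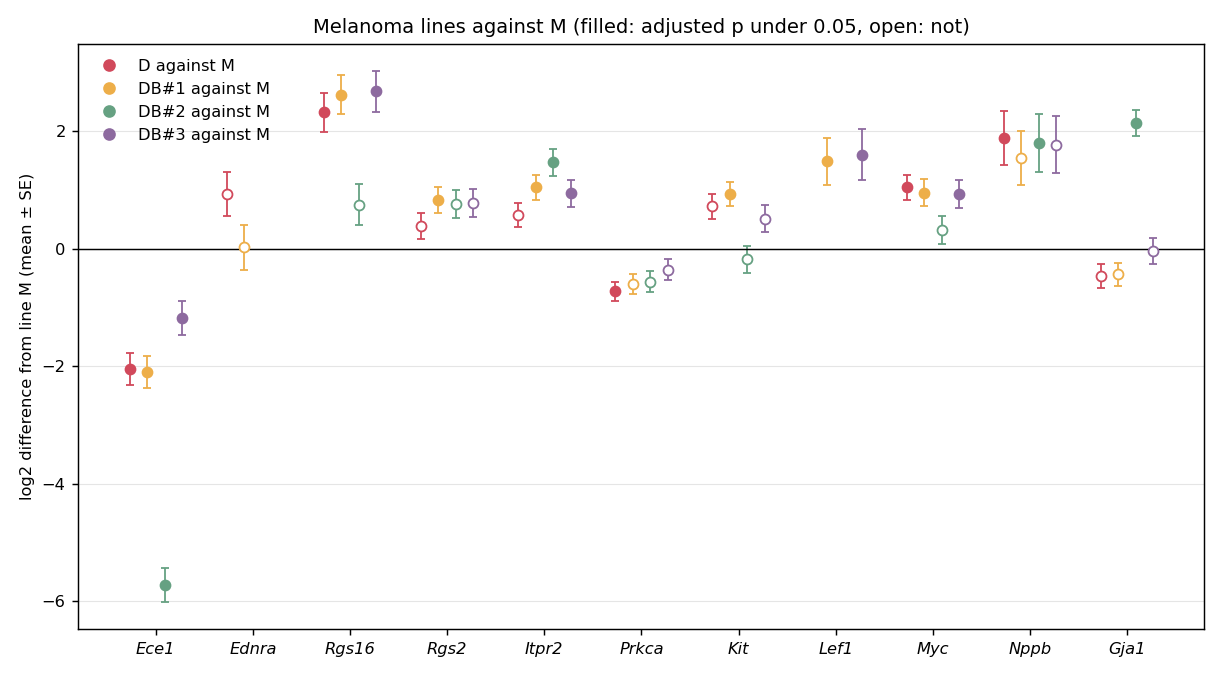
Difference in normalized log2 signal from line M (y axis, mean ± SE of the limma fit) for Ece1, Ednra and the genes of the 4 lists that passed in at least 1 line (x axis), in D, DB#1, DB#2 and DB#3; filled points passed an adjusted p of 0.05, open points did not, and genes not tested in a line have no point. Ece1 lies below 0 in all 4 lines, with the DB#2 value resting on readings below background, and Rgs16 lies 2.32 to 2.68 above M in D, DB#1 and DB#3.

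In the other signalling genes that passed, the differences were smaller in D, DB#1 and DB#3 than that of Rgs16. Itpr2, a calcium release channel of the endoplasmic reticulum opened downstream of phospholipase C, was higher than in M by 1.04 ± 0.21 in DB#1 (limma adjusted p = 0.00451), 1.47 ± 0.23 in DB#2 (adjusted p = 0.000258) and 0.94 ± 0.23 in DB#3 (adjusted p = 0.0222) by its brightest probe. Its probes disagreed, with detected probes spanning -1.03 to 1.04, -0.71 to 1.47 and -0.25 to 0.94 in these lines, so no direction is given for the gene. Rgs2, another G protein regulator, was 0.82 ± 0.22 higher in DB#1 (adjusted p = 0.0406). Its mean was -0.95 in M, -0.56 in D and -0.13 in DB#1. Without a call, the Rgs2 mean was much as in DB#1 in DB#2 (-0.18) and DB#3 (-0.17). Prkca, a protein kinase C, was 0.73 ± 0.17 lower in D (adjusted p = 0.0183), and its 2 probes gave -0.73 and -0.26. Its mean was 1.15 in M and 0.43 in D. Without a call, the Prkca mean was also below M in DB#1 (0.55), DB#2 (0.60) and DB#3 (0.79). The Prkca difference was -0.64 without D replicate 3, and its call ended without D replicates 1 and 3 together (-0.71), M replicate 2 (-0.74) or M replicate 3 (-0.65), and the Rgs2 call ended with normexp (0.64) or without any 1 of 13 arrays, with values from 0.75 to 0.93. The Itpr2 call in DB#3 ended without M replicate 1 (0.92), M replicate 2 (0.87), DB#3 replicate 3 (0.84) or DB#3 replicate 5 (0.92). Gnaq, the G protein subunit that couples both receptors to phospholipase C, ran from 2.04 to 2.41 over the 17 melanoma arrays and passed in none of the comparisons between melanoma lines.

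Among melanocyte lineage genes, Kit, the receptor of stem cell factor, was 0.93 ± 0.21 higher in DB#1 than in M (limma adjusted p = 0.0127). In D it was 0.72 ± 0.21 higher, without overlap, and did not pass (limma adjusted p = 0.0792). The mean of Kit was -0.70 in M, -0.19 in DB#3 and -0.88 in DB#2. Lef1, a transcription factor of the Wnt pathway, was 1.49 ± 0.40 higher in DB#1 (adjusted p = 0.0390) and 1.60 ± 0.43 higher in DB#3 (adjusted p = 0.0472), with 1 of 3 M arrays above background, so that it could be tested only through the dormant lines. With normexp the Lef1 differences were 0.41 and 0.50 and did not pass. In D, where 3 of 4 arrays were above background and Lef1 was therefore not tested, its mean was -2.78. The mean of Lef1 was -2.76 in DB#1, -2.66 in DB#3, -4.33 in DB#2 and -4.25 in M. The lineage factors Sox10, Pax3 and Mitf were read on all 17 melanoma arrays and passed in none of the 4 comparisons with M. The Kit call ended without M replicate 1 (0.92), M replicate 2 (0.84) or DB#1 replicate 3 (0.75). The Lef1 calls ended without any 1 of 8 arrays in DB#1, with values from 1.03 to 1.87 over all arrays left out, and without any 1 of 19 in DB#3, from 1.14 to 1.98.

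Among genes known to respond to endothelin, Myc was higher than in M by 1.04 ± 0.22 in D (limma adjusted p = 0.0106), 0.95 ± 0.23 in DB#1 (adjusted p = 0.0163) and 0.93 ± 0.24 in DB#3 (adjusted p = 0.0376). Its M arrays ran from 1.12 to 1.54 and its D arrays from 2.01 to 2.67. Nppb, which encodes B-type natriuretic peptide, was higher by 1.88 ± 0.46 in D (adjusted p = 0.0239) and 1.80 ± 0.49 in DB#2 (adjusted p = 0.0450). The Nppb level was 1.90 to 2.22 in M and 2.95 to 5.68 in D, and all arrays of all 4 dormant lines exceeded M, though the differences of 1.55 ± 0.46 in DB#1 and 1.77 ± 0.49 in DB#3 did not pass. Without D replicate 1, the brightest, the Nppb difference in D was 1.29, and without D replicate 3 it was 2.20; that of Myc was 1.15 without D replicate 3. The Nppb call in D ended without any 1 M array (1.81 to 1.97) and that in DB#2 without any 1 of 19 arrays (values up to 2.06). The Myc call ended without M replicate 2 (0.94) or M replicate 3 (1.02) in D, without any 1 of 4 arrays in DB#1 (all values 0.84 to 1.10) and without any 1 of 7 in DB#3 (0.84 to 1.04).

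Gja1, which encodes a gap junction connexin, stood out in DB#2. Its signal there was -0.15, -0.60 and -0.82, against -2.42, -2.36 and -3.21 in M and -2.87, -3.15, -3.50 and -3.00 in D. DB#2 thus did not overlap with either line. The rise was 2.14 ± 0.22 over M (4.41-fold, limma adjusted p = 1.67e-06) and 2.61 ± 0.20 over D (6.09-fold, adjusted p = 3.37e-08), and all 3 Gja1 probes gave 1.60 or more in both. The difference from D was 2.48 without D replicate 3. Both calls were kept in all 34 alternatives, with values of 1.38 and 1.64 under normexp. The 8 fibroblast markers had a mean level of -3.84 to -3.67 in DB#2, with 5 above background, and of -4.71 to -4.39 in M, with 3 above. They did not move together: the mean of Dcn, which encodes decorin, was -1.32 in DB#2 and -6.29 in M, that of Pdgfrb -2.79 and -6.32, and that of Pdgfra, in the other direction, -5.49 and -3.15. In DB#1, where the mean of Gja1 was -3.10, the marker mean was -4.22 to -3.51 with 3 to 5 above, and Pdgfrb was above background on every array of all 4 dormant lines. Their part in the Gja1 result was not tested. The melanocytic markers were 8 of 8 above background in DB#2.

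**Figure D3:**
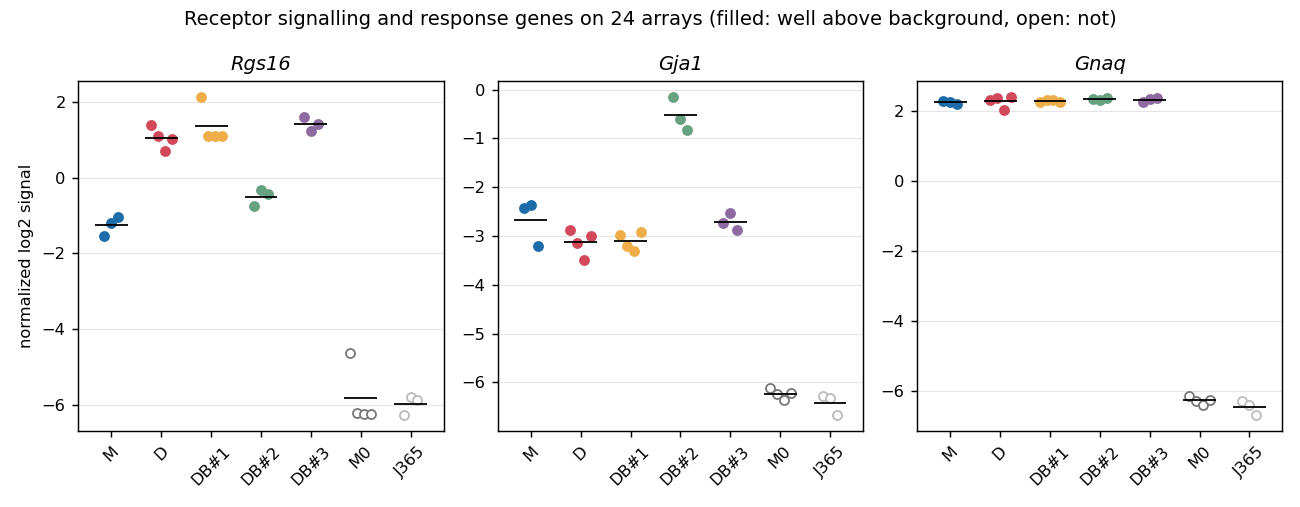
Normalized log2 signal (y axis) of Rgs16, Gja1 and Gnaq on each of 24 arrays by line (x axis); each point is 1 array, filled where well above background, the black line is the mean, and each panel has its own scale. Rgs16 separates M and DB#2 from D, DB#1 and DB#3, Gja1 is highest in DB#2, and Gnaq is read on all 17 melanoma arrays (2.04 to 2.41) and on no myeloid array.

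Between DB#2 and D, 6 of 57 genes of the 4 lists passed (10.5%, beside 6.34% of all genes; median 0.02 against 0.03), 3 in each direction. Beside Gja1, Itpr2 was higher by 0.90 ± 0.21 by its brightest probe (limma adjusted p = 0.0113, with overlapping arrays). Its 2 detected probes of 3 gave 0.83 and 0.90 here, though its probes disagreed against M. Mme, which encodes neprilysin, a protease that degrades endothelin, was higher by 1.76 ± 0.51 (limma adjusted p = 0.0447). It was above background on 3 of 4 D arrays and could be tested only through DB#2, where it was higher, so nothing is read from that call. Beside Rgs16, Pcsk4, a furin-like convertase, was lower by 1.07 ± 0.24 (limma adjusted p = 0.00803) and Kit by 0.90 ± 0.21 (limma adjusted p = 0.0122). The mean of Pcsk4 was -1.92 in M, -1.04 in D and -2.11 in DB#2, and that of Kit -0.70, 0.02 and -0.88. For both genes the DB#2 arrays overlapped those of M. Without D replicate 3 the differences from D were 0.76 for Itpr2, 1.89 for Mme, -0.93 for Pcsk4 and -0.94 for Kit, and without D replicates 1 and 3 Mme (1.29) did not pass. In DB#1 against D, 0 of 56 genes passed by limma (3 at an unadjusted p of 0.05), and in DB#3 against D 0 of 56 (4 at an unadjusted p of 0.05). The Mme call ended without any 1 of 14 arrays (1.31 to 2.11 over all arrays left out), that of Itpr2 without DB#2 replicate 1 (0.77) or DB#2 replicate 2 (0.87), that of Pcsk4 without DB#2 replicate 1 (-0.88) and that of Kit without DB#2 replicate 3 (-0.66).

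Between the melanoma line M and the myeloid line M0, most tested genes of the 4 lists passed, as did most genes. Of 59 genes tested in the 4 lists, 52 passed by limma (88.1%, beside 58.5% of all genes), 30 higher in M and 22 lower, with a median of 0.49 against -0.13 over all genes. The lists hold melanocyte lineage genes, of which 9 of 9 tested passed, all higher in M. Nothing particular to the endothelin pathway is therefore read from this share. By measured difference, whose order is not settled where a line is below background, the genes named on the side of M were Ccnd1, which encodes cyclin D1, at least 311-fold (adjusted p = 3.2e-15), the lineage factor Pax3, at least 496-fold (adjusted p = 1.91e-16), and the lineage factor Sox10, read in both lines and higher by 9.23 ± 0.15 on the log2 scale (adjusted p = 3.5e-21). On the side of M0 they were Grk3, a receptor kinase, at least 37.1-fold (adjusted p = 6.01e-09), Cma1, a chymase that can also cut big endothelin, at least 52.8-fold (adjusted p = 4.19e-09), and the phospholipase Plcb2, at least 29-fold (adjusted p = 3.7e-08). With normexp these 6 differences were 6.49, 6.95 and 7.53, and -3.54, -3.80 and -3.08, so the limits among them too hold for the main correction only. Gnaq was at least 81.2-fold higher in M (limma adjusted p = 2.63e-22), while its relative Gna11 was read in both and was 3.10 ± 0.13 higher in M (limma adjusted p = 1.95e-14). Both were picked from the list after their values were seen. Ccnd1, Pax3, Gnaq, Grk3, Cma1 and Plcb2 were below background on every array of the lower line. Each could be tested only through the line where it was higher, so nothing is read from their p-values. Of the phospholipase C beta genes, also picked after their values were seen, Plcb4 was read on 17 of 17 melanoma arrays and 0 of 7 myeloid arrays, and Plcb2 on 7 of 7 myeloid arrays and 2 of 17 melanoma arrays. Plcb3 was read on all 24 arrays and differed by 0.10 ± 0.19, and Plcb1 was read on 2 of 24. Between J365 and M0, 1 of 42 genes passed (2.38%, beside 1.47% of all genes), Mitf, 1.19 ± 0.29 higher in J365 (adjusted p = 0.0477), a call that ended without any 1 of 20 arrays (0.79 to 1.42 over all arrays left out).

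**Figure D4:**
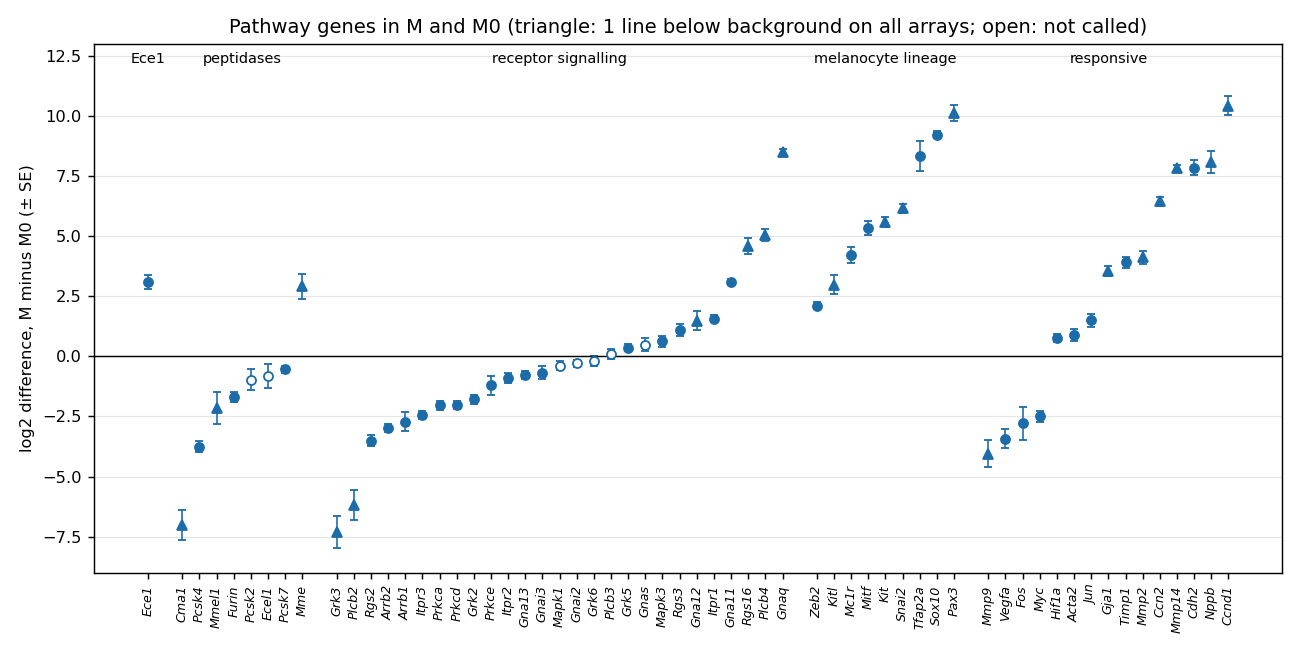
Difference in normalized log2 signal between the melanoma line M and the myeloid line M0 (y axis, M minus M0, ± SE of the limma fit) for Ece1 and each tested gene of the 4 lists (x axis); filled symbols passed an adjusted p of 0.05, open ones did not, and triangles mark genes below background on all arrays of 1 of the lines, whose plotted value is the measured difference and not a limit. Ece1 lies at 3.09, the melanocyte lineage genes all lie above 0, and the signalling genes fall on both sides.

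The genes whose levels were most like Ece1 over the 17 melanoma arrays, among 13229 candidates, were Nlgn2 (Pearson's r = 0.942, Spearman's rho = 0.801), Tbx15 (0.933, 0.740), Cbx7 (0.913, 0.681), Vasn (0.912, 0.809) and Adcy2 (0.898, 0.517), given as a description because the arrays of a line are alike and share slides. The likeness rested in part on DB#2, the melanoma line with the lowest level of Ece1 and of all 5 genes. Without its 3 arrays Pearson's r was 0.695 for Nlgn2, 0.637 for Tbx15, 0.525 for Cbx7, 0.787 for Vasn and 0.281 for Adcy2. Adcy2, an adenylyl cyclase, had a mean level of -2.43 in M and -6.63 in DB#2, where it was below background on all 3 arrays as Ece1 was. For Ednra, a list added after its values were seen, the most like were Elmo2 (0.782), Tmem79 (0.761), Gna12 (0.749), Mettl14 (0.742) and Rasal3 (0.737), of which Gna12 encodes a G protein subunit. Ednrb could not be used for such a list.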

How the data were processed

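Each array gave a scanner table that the authors made with Agilent Feature Extraction 10.7.3.1, per the labels, in which each spot has a deposited background-corrected intensity on a linear scale (gProcessedSignal). Further scaling by the authors is not given in the sources used here, and a deposited series table held the same intensities. Control spots and outlier spots were left out, spots of a probe were averaged, log2 intensity was taken minus the log2 of the array's 75th percentile, and the brightest probe stood for a gene. Probes were named through RefSeq symbols (22877 symbols for 32917 probes); the array design used assembly mm9. No count depth exists for arrays, and the number of arrays limits the precision.

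Lines were compared with limma 3.58.1 (lmFit and eBayes, R 4.3.3) fitted once to the 24 arrays with line as the factor (17 degrees of freedom left for the residual), for genes flagged above background throughout at least 1 of the lines compared, with Benjamini-Hochberg adjustment over all genes tested. On simulated data for D against M (20145 genes), 53% of genes shifted by 1 log2 unit and 80% of those shifted by 2 were recovered, with 5 false calls. Genes named were the members, Edn2, the called genes of the 4 lists (where over 6, the 3 largest rises and falls) and the 5 genes most like Ece1; Furin, Gnaq, Gna11, Plcb1, Plcb3, Plcb4, the lineage factors where not called and the genes most like Ednra were named after their values were seen, and marker genes only describe the cells. The members and lists were chosen with earlier results of these data known. For DB#1 and M, arrays with the same number deviated together (r from 0.567 to 0.911 over 3 pairs), which meets the bar set for pairs; the values printed are from the fit without pairs, and with the number as a block all 7 calls named there (Ece1 -2.15, Rgs16 2.68) still passed and no count of calls moved by over 1.5 times. Alternatives were another scaling, no filter, the mean of probes, slide and number as blocks, fewer arrays and another background correction.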

Additional observations from a re-analysis of the deposited data

Results flagged for a closer look

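In groups of 4 arrays, 4 of 54 gene-by-line groups over 18 genes had 1 array far from the others by Dixon's gap test, where chance gives about 1 in 20. Ednrb read -1.55 on D replicate 3, the array with 89.9% of probes above background. Rgs16 read 2.13 on DB#1 replicate 1, where the other DB#1 arrays read 1.10. Rgs16 also read -4.64 on M0 replicate 1, a value below background. Nppb read 4.43 on DB#1 replicate 1, the same array.

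The difference D minus M was set against the difference J365 minus M0. For Rgs16 this gave 2.47 ± 0.46 (limma interaction term, adjusted p = 0.00362), the only 1 of 59 tested genes of the 4 lists to pass, where 2.07% of 23120 genes passed. Rgs16 was below background on all myeloid arrays, so the value largely restates D minus M and shows no difference in response between the cell types. For Ece1 the same contrast was -1.85 ± 0.39, given as a description because Ece1 was chosen with its melanoma values known.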

How the results depend on the processing

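Of 1496 values of 44 gene differences under the alternatives, 1306 kept their direction and side of the threshold, 173 no longer passed, 7 newly passed, 10 differences near 0 moved and 0 passing values changed sign. Beside the arrays left out that are listed above, no filter ended calls of Prkca, Rgs2, Lef1, Myc, Nppb, Itpr2, Mme and Mitf in at least 1 comparison. The compared arrays alone did so for Prkca, Kit, Lef1, Myc, Nppb, Itpr2, Pcsk4, Mme and Mitf. The mean of probes did so for Itpr2, Nppb and Mitf. Members that passed went from 1 to 0 in D against M with the mean of probes, and from 1 to 0 in DB#3 against M with quantile normalization, no scaling, no filter, the mean of probes or the replicate block. They went from 1 to 2 in DB#2 against D (75th percentile over detected probes, replicate block), from 0 to 1 in DB#3 against D (replicate block, where Ednra differed by -1.81) and from 1 to 2 in M against M0 (no filter). With single arrays left out these counts ran from 1 to 1, 0 to 1, 1 to 2, 0 to 1 and 1 to 2.

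Genes of the 4 lists that passed in D against M (4) became 7 with no scaling or the slide as a block, 2 with no filter and 1 with the compared arrays alone. DB#1 against M (6) became 3 with no filter. DB#2 against M (3) became 5 with the percentile over detected probes, the slide as a block or D replicates 1 and 3 left out, 6 with no scaling and 1 with the mean of probes. DB#3 against M (4) became 1 with no filter. DB#2 against D (6) became 10 with quantile normalization or D replicates 1 and 3 left out, 13 with the slide as a block and 3 with the compared arrays alone. J365 against M0 (1) became 2 with quantile normalization, the slide as a block or D replicates 1 and 3 left out, 3 with no scaling or normexp, and 0 with no filter, the mean of probes or the compared arrays alone. With single arrays left out the counts ran from 1 to 6, 2 to 8, 2 to 4, 1 to 6, 4 to 10 and 0 to 2, and from 50 to 54 in M against M0. The cause was not tested, except that no filter adds genes to the adjustment.

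Apart from DB#1 against M, no comparison had at least 3 pairs that all deviated together (r from -0.793 to 0.852 over the others). DB#3 and D had 2 such pairs (r 0.212 and 0.709), too few to settle it, so the arrays are taken to share only a number, and the replicate block values above are given for completeness. Normexp on the mean signal was not run, and normexp on the median signal with an offset of 50 was used after seeing the data, as was leaving out D replicates 1 and 3. With no scaling the median difference of all genes was 0.25 in DB#2 against M and 0.17 in D against M. Signals below background bound the ligands, Ednrb and Ece1 in DB#2 from above only.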
